A study of Mus musculus with 11 samples.

Results

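The nuclear genes of the mitochondrial respiratory chain and ATP synthase were described in 4T1 cells, a mouse mammary carcinoma line. Every row of the gene table was taken whose symbol began with Nduf followed by a, b, c, s or v, with Uqcr, with Cox4 to Cox8, or with Atp5, which gave 88 of 24197 rows. Of these, 43 were counted with complex I, 8 with complex III, 20 with complex IV and 17 with complex V, including some genes that are not subunits. Complex II and the carriers cytochrome c and ubiquinone fall outside this name pattern and were read as a separate list, together with Cyc1, which encodes the cytochrome c1 subunit of complex III and also lies outside the pattern.

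RNA sequencing had been carried out on 11 libraries in 4 groups, and all groups were the same cell line in culture. The vehicle control group (2 libraries) was collected at 72 h. The 4HC group (3 libraries) received 5 uM 4-hydroperoxy-cyclophosphamide, a chemically activated form of the DNA-alkylating drug cyclophosphamide, for 4 h and was collected 68 h later. The 4HC+IFNAR-1 Ab group (3 libraries) received the same drug exposure plus 10 ug/mL of a monoclonal antibody that binds IFNAR1, a chain of the receptor for type I interferons, which was also kept in the medium after the drug was removed. The IFN-beta group (3 libraries) received 250 U/mL recombinant mouse interferon-beta for 4 h and, by its sample labels and the study's methods, was collected 2 h later alongside the 72 h controls, so it differed from the drug groups in time after treatment as well as in agent. The header of the analysed IFN-beta column also gives this short time. Only the general protocol text in the labels describes 68 h after exposure. The design had no group with antibody alone and no control antibody. The vehicle control group was shared by 3 of the 4 comparisons.

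The table gave 1 mean FPKM (fragments scaled to transcript length and to library depth) for each group, and no value for a single library was analysed here. No replicate spread could be computed from these means and no test between groups was run on them. Ratios below are log2 ratios of group means after adding 0.1 FPKM to each, and 10315 rows with a mean of at least 1 FPKM over the 4 groups were kept, 81 of them respiratory chain genes. Library depths, read from the FPKM value of a single read in single-exon receptor genes, lay between 32.1 and 49.3 M reads. These values are above the average depth that the study gives for its cell culture libraries. Each vehicle control and IFN-beta depth rested on only 2 or 3 receptor genes. At these depths the median half-width of the 95% exact counting interval of a log2 ratio was 0.08 in 4HC against vehicle control. Such intervals cover counting error only and not the difference between cultures.

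As background, the respiratory chain passes electrons from NADH and succinate to oxygen and pumps protons across the inner mitochondrial membrane, and ATP synthase (complex V) uses the proton gradient to make ATP. Complex I oxidises NADH, complex III oxidises ubiquinol and reduces cytochrome c, and complex IV reduces oxygen. A few subunits of complexes I, III, IV and V are encoded by mitochondrial DNA and were not analysed here. The remaining subunits are encoded in the nucleus, imported and assembled, and the factors NRF1 and GABP are known regulators of many of their promoters.

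Promoter sequences were read for the genes of the name pattern, to show which short motifs occur before their starts. Of the 88 genes, 73 had an entry in the RefSeq promoter table (GRCm38.p6), with 79 start sites between them. The 250 bases before each start were searched on both strands for the NRF1 palindrome, which is the half-site GCGCA followed directly by its reverse complement TGCGC, for CCGGAAG, the core bound by the ETS factors that include GABP, and for the CCAAT, GC and TATA boxes. None of the motifs searched contains another. The palindrome was present in 5 of 79 windows (6.33%), against 0.782% of all 32851 windows in the table. CCGGAAG was present in 12 windows (15.2%, against 6.91%) and CCAAT in 33 (41.8%, against 33.8%). The GC box GGGCGG was present in 29 windows (36.7%, against 32.7%), and the TATA box TATAAA was less frequent than in all windows (7 windows, 8.86%, against 12.4%). A match is a description of the letters and was not tested as a binding site.

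The 5 windows with the NRF1 palindrome are shown as 100-base stretches with the palindrome in capitals, because these carry the motif that was rarest in the table as a whole. They lie at chr15:102671048-102671147 (minus strand), chr5:108434400-108434499 (minus), chr5:115349066-115349165 (minus), chr17:56717657-56717756 (plus) and chr4:24897925-24898024 (plus) of GRCm38.p6.
Atp5g2: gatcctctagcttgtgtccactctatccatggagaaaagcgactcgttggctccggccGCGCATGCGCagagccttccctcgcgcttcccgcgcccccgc
Atp5k: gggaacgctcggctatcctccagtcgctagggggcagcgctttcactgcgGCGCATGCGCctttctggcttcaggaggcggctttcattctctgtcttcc
Cox6a1: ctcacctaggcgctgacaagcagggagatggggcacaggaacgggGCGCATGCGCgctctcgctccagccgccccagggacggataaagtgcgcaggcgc
Ndufa11: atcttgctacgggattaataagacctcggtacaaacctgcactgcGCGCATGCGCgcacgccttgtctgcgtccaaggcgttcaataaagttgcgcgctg
Ndufaf4: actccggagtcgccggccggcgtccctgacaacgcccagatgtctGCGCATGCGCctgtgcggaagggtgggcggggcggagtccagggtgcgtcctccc

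These 5 genes did not share one response. In 4HC against vehicle control their log2 ratios were -0.53 for Atp5g2, -0.64 for Atp5k, -0.02 for Cox6a1, -0.06 for Ndufa11 and -0.59 for Ndufaf4.

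The promoters of Atp5g1 and Ndufa3 are shown because these lay near opposite ends of the 4HC comparison, with CCAAT and its reverse complement in capitals. Atp5g1 was not the lowest gene with a promoter entry. Uqcrfs1 was slightly lower (log2 ratio -0.98 against -0.97), had no CCAAT in its window and is not shown. Uqcrq, the lowest gene, had no entry. The 250 bases before the Atp5g1 start (chr11:96075632-96075881, minus strand, GRCm38.p6) held 5 matches, of which 2 overlap on opposite strands, and the same stretch before Ndufa3 (chr7:3617123-3617372, plus strand) held 0. Some other genes went the other way from this pair, and CCAAT was not set against the ratios over all genes. CCAAT was present before Atp5h and Ndufv3, with log2 ratios of 0.20 and 0.15 with 4HC. It was not in the windows of Cox7a2 and Ndufb8, with -0.84 and -0.82.
Atp5g1: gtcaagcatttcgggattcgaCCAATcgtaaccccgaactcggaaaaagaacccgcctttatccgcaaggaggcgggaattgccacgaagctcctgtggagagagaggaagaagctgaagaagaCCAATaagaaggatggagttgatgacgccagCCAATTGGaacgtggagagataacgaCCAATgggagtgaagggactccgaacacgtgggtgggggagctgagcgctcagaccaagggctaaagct
Ndufa3: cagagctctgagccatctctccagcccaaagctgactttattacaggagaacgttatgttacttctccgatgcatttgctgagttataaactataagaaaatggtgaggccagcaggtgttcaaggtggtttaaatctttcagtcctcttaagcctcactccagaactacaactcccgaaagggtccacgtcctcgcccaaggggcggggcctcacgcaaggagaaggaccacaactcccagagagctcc

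In vehicle-treated 4T1 cells these genes were among the more abundant transcripts. The 81 genes past the filter had a median of 42.8 FPKM, against 6.35 FPKM for all rows past it. The 88 genes together made up 2.57% of the summed FPKM of the table. This share was 2.33% with IFN-beta, 1.99% with 4HC and 1.90% with 4HC+IFNAR-1 Ab. The vehicle control was the group with the highest mean for 51 of the 81 genes, and 4HC+IFNAR-1 Ab the group with the lowest for 66. Over all rows past the filter, these groups held the highest and the lowest mean in 27.6% and 25.5% of rows, respectively.

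**Figure D1:**
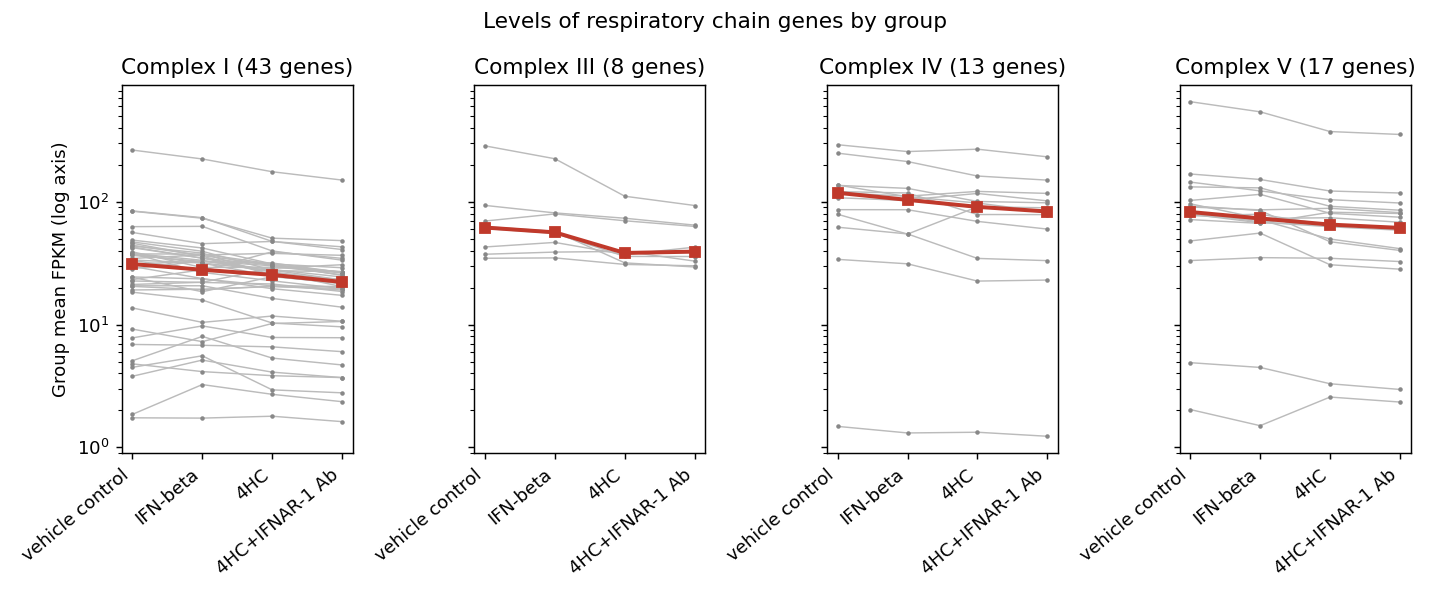
Group mean FPKM (log axis) of the 81 respiratory chain genes past the filter, by complex; each grey line is 1 gene, and the red squares are the median over the genes of the panel. The complex I median was 31.1 FPKM in the vehicle control and 22.2 FPKM with 4HC+IFNAR-1 Ab, and the complex V median 82.6 and 61.3 FPKM.

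Atp5b, which encodes the catalytic beta subunit of ATP synthase (listed at chr10:127520362-127527444, mm9), was the most abundant. It stood at 654 FPKM in the vehicle control, rank 36 of the 24197 rows, and at 541 with IFN-beta, 373 with 4HC and 354 with 4HC+IFNAR-1 Ab. Cox4i1, the widely expressed form of complex IV subunit 4, followed at 292 FPKM, with 256, 268 and 232 in the same order of groups. Uqcrq, a small subunit of complex III, stood at 285 FPKM in the vehicle control, Ndufb9 of complex I at 264 and Cox8a of complex IV at 249. Levels of structural subunits within a complex were uneven. In the vehicle control, complex I subunits ranged from 6.89 FPKM for Ndufa11 to 264 FPKM for Ndufb9, and the 11 widely expressed complex IV subunits from 34.0 FPKM for Cox7b to 292 FPKM for Cox4i1. In complex III the highest level, that of Uqcrq, was 8.24 times the lowest in the vehicle control and 3.59 times the lowest with 4HC. This ratio went from 38.3 to 26.7 in complex I and from 19.7 to 12.2 in complex V. In complex IV it went the other way, from 8.59 to 11.9.

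Isoforms of complex IV that are known from muscle, testis or other specialised tissues were at or near 0. Cox6b2, Cox8b and Cox8c were listed at 0 in all 4 groups. Cox7b2, Cox4i2 and Ndufa4l2 had at most 0.034 FPKM in any group. Cox7a1, the heart and skeletal muscle form of subunit 7a, had 0.041 FPKM in the vehicle control, 0.267 with 4HC, 0.254 with 4HC+IFNAR-1 Ab and 0.026 with IFN-beta. The means of the drug groups were higher, at a level that stayed below 1% of Cox7a2 plus Cox7a1. The vehicle control value stands for about 1.1 reads in all, against about 11.4 with 4HC. The counting interval of that log2 ratio ran from 0.03 to 8.24. These 7 genes were under the filter. Cox6a2, the muscle form of subunit 6a, passed it at 1.48, 1.33, 1.23 and 1.31 FPKM in the vehicle control, 4HC, 4HC+IFNAR-1 Ab and IFN-beta groups, against 119 FPKM in the vehicle control for its widely expressed paralog Cox6a1. The reads of Ndufa4l2 cannot be separated by span from those of Shmt2, whose listed span overlaps it. In all, 10 of the 88 genes overlapped another row of the table, and the strand setting of the counting was not stated.

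The comparison of 4HC with the vehicle control asked how the genes stood 3 days after a short exposure to the activated drug. Most were lower with 4HC. Of the 81 genes, 61 had a log2 ratio below 0, with a median of -0.32 (0.80-fold) and an SD over genes of 0.37. By more than 1.5-fold, 25 genes were lower and 0 higher, where 10.2% of all rows past the filter were lower and 23.6% were higher. The median of all rows was 0.10, and that of the 3942 rows of at least 10 FPKM was -0.05, with 14.1% of these lower and 16.4% higher by more than 1.5-fold. One gene, Uqcrq, was lower by more than 2-fold, against 2.11% of all rows. FPKM is scaled to library depth, and only bulk RNA was measured. Less RNA of these genes per cell, a smaller share of expressing cells and more RNA of other genes thus cannot be told apart.

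Transcript length moved with this result. The median transcript of the respiratory chain genes was 748 bases, against 2616 bases over all rows past the filter, and 51 of the 81 genes were under 1000 bases. Other rows under 1000 bases had a median log2 ratio of -0.10 in 4HC against vehicle control (1124 rows), and -0.18 where their mean was at least 10 FPKM (597 rows). The respiratory chain genes of that length had -0.35. Among rows of 1000 bases or more, the 30 respiratory chain genes had a median of -0.24 and the 9052 other rows 0.13. The genes were thus lower than other rows within both length classes, and the gap was smaller among short transcripts. The long class was set only against rows from 1 FPKM upward, so level was not matched there. Rn45s, the ribosomal RNA precursor, stood at 1038 FPKM in the vehicle control and at 300, 284 and 338 FPKM in the 4HC, 4HC+IFNAR-1 Ab and IFN-beta groups, and its part in the result was not tested.

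**Figure D2:**
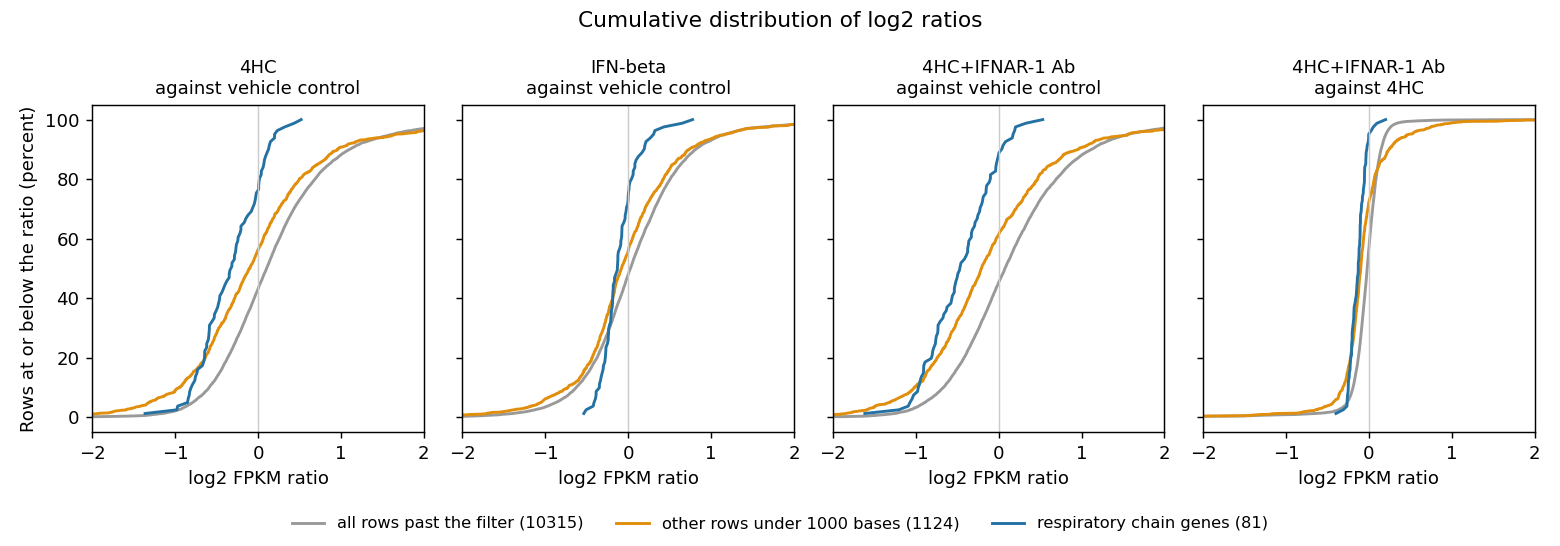
Cumulative percent of rows at or below a log2 FPKM ratio in each comparison, for all 10315 rows past the filter, the 1124 other rows with a median transcript under 1000 bases and the 81 respiratory chain genes; the axis is limited to ratios between -2 and 2. In 4HC against vehicle control the respiratory chain curve lies to the left of both others over most of its range (medians -0.32, -0.10 and 0.10), and in IFN-beta against vehicle control it is steeper, with no gene below -0.54.

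Within complex I the catalytic and the accessory subunits differed in the size of the ratio. The 7 nuclear core subunits, which carry the flavin, the iron-sulfur clusters and the quinone-reducing part, had a median of -0.08 in 4HC against vehicle control, and 0 of them passed 1.5-fold. Ndufv1, the subunit that binds NADH and flavin, had 33.3 FPKM in the vehicle control, 39.1 with 4HC, 34.6 with 4HC+IFNAR-1 Ab and 27.6 with IFN-beta. Ndufs1, the largest iron-sulfur subunit, had 24.4, 20.7, 20.4 and 23.5 FPKM in that order of groups. Ndufs3, a subunit of the arm next to the quinone site, had 28.6, 28.1, 24.4 and 32.9 FPKM. These core subunits stayed within 1.2-fold of the vehicle control with 4HC.

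The 29 accessory subunits, which surround the core and serve in assembly and stability, had a median of -0.50, and 13 were lower by more than 1.5-fold. Ndufb8, an accessory subunit of the membrane arm, had 84.2 FPKM in the vehicle control, 47.6 with 4HC, 40.8 with 4HC+IFNAR-1 Ab and 74.2 with IFN-beta. Ndufa9, which lies at the junction of the complex's arms, had 43.6, 25.2, 22.2 and 38.2 FPKM in the same order. Ndufs5 had 46.0, 25.5, 23.3 and 36.1 FPKM, and its listed span overlaps that of BC002163, which had 24.3, 13.3, 12.2 and 18.9 FPKM. The other 10 lay between -0.83 for Ndufb2 and -0.59 for Ndufb9, and included Ndufab1, the mitochondrial acyl carrier protein, with 37.4, 24.8, 21.5 and 31.6 FPKM. For Ndufb8, Ndufa9 and Ndufs5 both drug groups were the lowest and IFN-beta lay between them and the vehicle control. Of the accessory subunits, 6 had ratios above 0, led by Ndufa3 with 21.2, 28.7, 30.7 and 22.1 FPKM (log2 ratio 0.44 with 4HC, counting interval 0.29 to 0.59). Ndufa3 had the highest ratio in this comparison among respiratory chain genes of at least 5 FPKM.

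The core and accessory subunits differed in length too, with median transcripts of 1312 and 704 bases. The 7 accessory subunits of 1000 bases or more had a median of -0.59 and the 22 shorter ones -0.48, so the accessory subunits had a lower median than the core subunits in the long class as well. The 5 core subunits of 1000 bases or more had a median of -0.03, and the 2 shorter ones -0.14. The split into core and accessory subunits was made from textbook knowledge after the values had been seen.

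The 7 Ndufaf genes, which encode assembly factors that are absent from the finished complex, had a median of 0.04. Ndufaf4 was the one factor lower by more than 1.5-fold, with 4.48 FPKM in the vehicle control and 2.94 with 4HC. Ndufaf3 was 1.85 FPKM in the vehicle control and 2.70 with 4HC.

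Complex III held the most strongly lowered gene. Uqcrq (listed at chr11:53242449-53244333, mm9), had 285 FPKM in the vehicle control, 111 with 4HC, 93.3 with 4HC+IFNAR-1 Ab and 224 with IFN-beta. Its log2 ratio with 4HC was -1.36 (counting interval -1.41 to -1.31), which is 2.57-fold lower. Uqcrfs1, the Rieske iron-sulfur protein that takes electrons from ubiquinol, had 62.8, 31.8, 29.4 and 57.4 FPKM and was 1.97-fold lower with 4HC. Uqcrb, a small subunit near the quinone site, had 60.6, 35.9, 35.8 and 55.3 FPKM. The core proteins Uqcrc1 (69.7, 70.0, 63.0 and 79.6 FPKM) and Uqcrc2 (34.7, 30.9, 30.1 and 34.9 FPKM) were within 1.2-fold of the vehicle control in every group. Over the 8 genes of the complex in the name pattern the median was -0.28, and 3 passed 1.5-fold. Cyc1, the cytochrome c1 subunit outside that pattern, had 56.4 FPKM in the vehicle control and log2 ratios of -0.50 with 4HC, -0.68 with 4HC+IFNAR-1 Ab and -0.01 with IFN-beta.

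The 12 complex IV subunits past the filter had a median of -0.38 in 4HC against vehicle control, and 11 were below 0. Cox7a2, the widely expressed form of subunit 7a, had 62.1 FPKM in the vehicle control, 34.6 with 4HC, 33.2 with 4HC+IFNAR-1 Ab and 54.7 with IFN-beta, a log2 ratio of -0.84 with 4HC. Cox8a (249, 162, 150 and 213 FPKM), Cox6b1 (121, 78.8, 78.6 and 118 FPKM) and Cox7b (34.0, 22.6, 23.0 and 31.2 FPKM) also passed 1.5-fold. Cox5a, which binds thyroid hormone metabolites and helps to regulate the enzyme, had 137, 97.8, 82.3 and 110 FPKM, a smaller step. Cox5b, which holds a zinc ion, had 108, 89.7, 83.3 and 102 FPKM. Cox6c was nearly level at 118, 121, 117 and 111 FPKM. Cox7a2l, a supercomplex assembly factor related to Cox7a2, was 79.2 FPKM in the vehicle control and 90.9 with 4HC, so it lay on the other side of 0 from Cox7a2.

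In complex V the 15 structural genes had a median of -0.40, and 13 were below 0. All 5 subunits of the catalytic F1 part were lower, between -0.81 for Atp5b and -0.38 for Atp5d. Atp5a1, the alpha subunit, had 168 FPKM in the vehicle control, 122 with 4HC, 118 with 4HC+IFNAR-1 Ab and 152 with IFN-beta. Atp5c1, the gamma subunit of the rotating stalk, had 82.6, 62.6, 58.7 and 68.5 FPKM. Atp5o, which joins F1 to the peripheral stalk, was close to level at 90.7, 88.5, 81.5 and 85.9 FPKM. Atp5h, another peripheral stalk subunit, was higher in both drug groups at 71.6, 82.2, 80.3 and 66.7 FPKM. Atp5f1, the b subunit of that stalk, had 79.4, 65.2, 59.7 and 67.4 FPKM, and its listed span overlaps that of Wdr77, with 16.9, 18.6, 17.2 and 25.2 FPKM. Atp5s and Atp5sl match the name pattern and were counted with complex V by name only, but are not subunits. RefSeq names them Dmac2l and Dmac2. Atp5s had 2.03 FPKM in the vehicle control, 2.57 with 4HC and 2.34 with 4HC+IFNAR-1 Ab, and a log2 ratio of -0.41 with IFN-beta. Atp5sl had 4.89, 3.29, 2.96 and 4.47 FPKM.

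The membrane-embedded c ring is encoded by 3 genes that give the same mature protein, and these differed in the size of their ratio. Atp5g1 had 92.7 FPKM in the vehicle control, 47.3 with 4HC, 40.1 with 4HC+IFNAR-1 Ab and 84.9 with IFN-beta. Atp5g2 had 132, 91.9, 85.4 and 130 FPKM, and Atp5g3 had 103, 80.6, 74.9 and 115 FPKM. Their sum was 328 FPKM in the vehicle control, 220 with 4HC, 200 with 4HC+IFNAR-1 Ab and 330 with IFN-beta. The share of Atp5g1 in that sum was 28.3% in the vehicle control, 21.5% with 4HC, 20.0% with 4HC+IFNAR-1 Ab and 25.8% with IFN-beta. These paralogs are alike in sequence and how reads that fit several genes were counted is not given in the sources used here, so the split between them is uncertain.

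**Figure D3:**
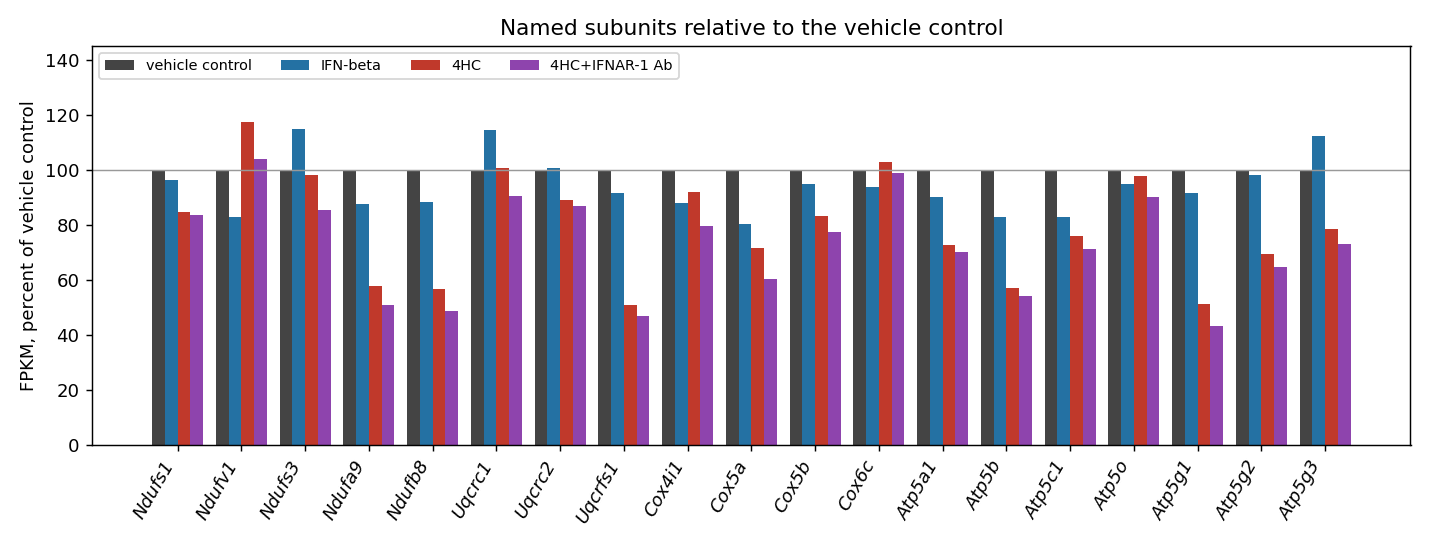
Group mean FPKM as percent of the vehicle control (bars from 0, grey line at 100) for 16 subunits chosen across the complexes and for the 3 c ring genes; means only, without error bars because no library values were analysed. Atp5b stands at 57.1% with 4HC and 82.7% with IFN-beta, and Ndufb8 at 56.5% and 88.2%, while Ndufs1 stands at 84.6% with 4HC.

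The comparison of IFN-beta with the vehicle control asked how the genes stood shortly after direct interferon exposure. Ratios were small. The median over the 81 genes was -0.13 (0.91-fold), 60 were below 0, and the SD over genes was 0.23. By more than 1.5-fold, 2 genes were higher and 0 lower, where 16.7% of all rows past the filter were higher and 11.3% lower. The median of all rows was 0.02. Other rows under 1000 bases with at least 10 FPKM had a median of -0.13, the same as the -0.13 of the respiratory chain genes of that length. Among rows of 1000 bases or more, the 30 respiratory chain genes had a median of -0.14 and the 9052 other rows 0.04. These long rows were not limited to at least 10 FPKM, so level was not matched.

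Both genes past 1.5-fold were complex I assembly factors. Ndufaf3 was 1.85 FPKM in the vehicle control and 3.24 with IFN-beta, a log2 ratio of 0.78 (counting interval 0.57 to 1.05). Ndufaf1 was 5.07 and 8.01 FPKM, a log2 ratio of 0.65 (0.51 to 0.82). Ndufaf7 (3.79 and 5.13 FPKM), Ndufaf2 (7.78 and 9.74 FPKM) and Ndufaf4 (4.48 and 5.56 FPKM) were also above 0, and the median over the 7 factors was 0.32. Ndufaf5 (log2 ratio -0.008) and Ndufaf6 (-0.21) were below 0. The 32 genes listed as assembly factors outside the name pattern did not lean this way. With IFN-beta their median was 0.009, with 16 below 0 and 16 above. Ndufv2, a core iron-sulfur subunit, was the highest structural subunit at 23.2 and 27.9 FPKM. The structural subunits of complex I had a median of -0.19, and 28 of 36 were below 0.

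At the other end, Cox7a2l had the lowest ratio with IFN-beta, at 79.2 FPKM in the vehicle control and 54.6 with IFN-beta (log2 ratio -0.54, counting interval -0.59 to -0.49). In both drug groups the same gene lay above the vehicle control. Ndufa6 (37.9 and 26.6 FPKM), Ndufb11 (39.1 and 29.1 FPKM), Atp5d (96.4 and 73.2 FPKM) and Ndufa13 (24.3 and 18.5 FPKM) followed. All 12 complex IV subunits were below 0, with a median of -0.14, and the 8 complex III genes were split evenly around a median of -0.06.

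With the interferon receptor blocked, 4HC was set against the vehicle control to ask what remained of the drug response. The genes were lower again, with a median of -0.46 (0.73-fold) and 71 of 81 below 0. By more than 1.5-fold, 30 were lower and 0 higher, against 12.7% and 23.6% of all rows past the filter, and 18.6% and 15.8% of the rows of at least 10 FPKM. There were 6 genes lower by more than 2-fold (3.22% of all rows), namely Uqcrq, Atp5g1, Uqcrfs1, Ndufa2, Ndufb8 and Ndufs6. Accessory subunits of complex I had a median of -0.73, with 16 of 29 past 1.5-fold, and core subunits -0.26 with 0 past it. Complex III, IV and V structural genes had medians of -0.37, -0.50 and -0.50. Ndufa3 was again the highest of the genes of at least 5 FPKM, with a log2 ratio of 0.53. Ndufv3 (9.18 and 10.6 FPKM), Cox7a2l (79.2 and 89.4 FPKM), Atp5h (71.6 and 80.3 FPKM) and Ndufa10 (34.6 and 36.6 FPKM) followed. Other rows under 1000 bases had a median of -0.21, and -0.31 where they had at least 10 FPKM, against -0.53 for the respiratory chain genes of that length.

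The direct comparison of 4HC+IFNAR-1 Ab with 4HC asked what the antibody changed in drug-treated cells. No respiratory chain gene differed by more than 1.5-fold, where 0.427% of all rows past the filter were higher and 1.33% lower. The ratios leaned one way, with 77 of 81 below 0 and a median of -0.13 (0.92-fold), against -0.02 for all rows and -0.05 for rows of at least 10 FPKM. Other rows under 1000 bases with at least 10 FPKM had -0.12, and the respiratory chain genes of that length -0.12. In the class of 1000 bases or more, the respiratory chain genes had a median of -0.14, with 29 of 30 below 0, and the other rows -0.01. That long class had no limit of at least 10 FPKM, so level was not matched. Ndufa2, an accessory subunit of complex I, had the lowest ratio at 26.8 FPKM with 4HC and 20.3 with the antibody. Ndufb6 (31.2 and 25.1 FPKM), Ndufs6 (27.7 and 23.1 FPKM), Uqcr11 (39.4 and 32.9 FPKM) and Atp5e (49.7 and 41.5 FPKM) came next. The 4 genes above 0 were Uqcrh (37.1 and 42.7 FPKM), Ndufa3 (28.7 and 30.7 FPKM), Ndufv3 (10.2 and 10.6 FPKM) and Cox7b (22.6 and 23.0 FPKM). The antibody was not tested alone, so its own effect and the blocking of interferon signals cannot be told apart.

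**Figure D4:**
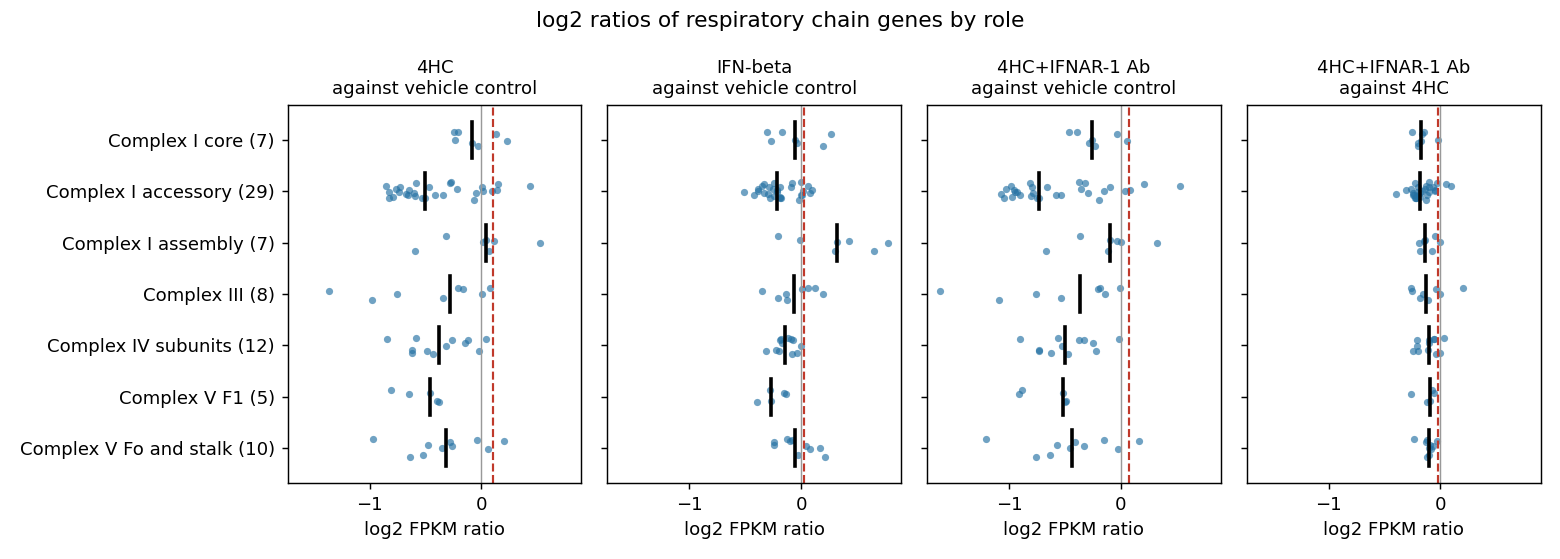
log2 FPKM ratio of each respiratory chain gene past the filter (points, spread vertically for visibility) by role in the 4 comparisons, with the number of genes in parentheses; black bars are medians over genes, the grey line is 0 and the red dashed line the median of all rows. In 4HC against vehicle control the accessory subunits of complex I sit at a median of -0.50 and the core subunits at -0.08. In IFN-beta against vehicle control the Ndufaf assembly factors of complex I sit at 0.32.

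The genes that work beside these complexes were read from lists. Of 19 genes of complex II, cytochromes c and c1 and ubiquinone synthesis past the filter, 2 were lower and 0 higher by more than 1.5-fold with 4HC, with a median of -0.07, where 10.2% of all rows were lower and 23.6% higher. The share lower was thus near that of all rows. The list pooled the chain components with the complex II assembly factors Sdhaf1 and Sdhaf2 and with the ubiquinone genes. Cycs (log2 ratio -0.90), Sdhd (-0.72), Cyc1 (-0.50), Sdhc (-0.48), Sdhb (-0.07) and Sdha (-0.03) were all below 0 with 4HC. The ubiquinone genes lay on both sides of 0, from -0.58 for Coq7 to 0.42 for Coq2. Cycs, which encodes cytochrome c, had 32.9 FPKM in the vehicle control, 17.6 with 4HC, 15.2 with 4HC+IFNAR-1 Ab and 27.5 with IFN-beta. Sdhd, a membrane anchor of complex II, had 81.1, 49.1, 48.3 and 64.7 FPKM. Of 32 genes listed as assembly factors outside the name pattern, 4 were lower and 0 higher, with a median of -0.14. The share lower was also near the 10.2% of all rows. That list counted Atpif1, the ATP synthase inhibitor, which is not an assembly factor. Cox20, which assists the maturation of a mitochondrially encoded complex IV subunit, had 15.1, 4.40, 4.19 and 8.78 FPKM, and Cox14, another complex IV assembly factor, 33.8, 16.7, 15.1 and 23.3 FPKM. Among 13 genes listed as regulators of respiratory gene expression, 4 were lower and 0 higher by more than 1.5-fold in 4HC against vehicle control. The 13 include Mtf1, a metal-responsive transcription factor that is not a respiratory regulator. In IFN-beta against vehicle control 4 were lower and 1 higher, where 11.3% of all rows were lower and 16.7% higher. The higher one was Pprc1, a coactivator related to PGC-1, at 12.5 FPKM in the vehicle control and 23.7 with IFN-beta, named after its values were seen. Gabpa, the DNA-binding subunit of GABP, had 14.4 FPKM in the vehicle control, 8.96 with 4HC, 8.94 with 4HC+IFNAR-1 Ab and 9.55 with IFN-beta. Myc had 137, 79.3, 69.9 and 68.6 FPKM. Their part in the levels of the respiratory chain genes was not tested.

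The epithelial markers of the list were present in every group, with a summed level of 233 FPKM in the vehicle control, 442 with 4HC, 456 with 4HC+IFNAR-1 Ab and 291 with IFN-beta. Of these 5 markers, 4 were higher with 4HC than in the vehicle control. Cdh1 was lower, at 63.0 FPKM in the vehicle control and 50.5 with 4HC. Of the leukocyte markers reported here, Emr1 was at 0 in all groups and Ptprc, Cd3e and Itgam at or below 0.044 FPKM, while Cd68, a lysosomal protein that other cell types also make, was 2.52, 8.46, 7.80 and 1.27 FPKM in the vehicle control, 4HC, 4HC+IFNAR-1 Ab and IFN-beta groups. Of 6 fibroblast and endothelial markers, the summed level was 0.536, 3.78, 4.66 and 0.464 FPKM in the same order, mostly Pdgfra at 0.496, 3.38, 4.13 and 0.442 FPKM. The part of these genes in the lower respiratory chain levels was not tested.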

How the data were processed

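The authors deposited 1 table for the 4T1 cultures with a mean FPKM per group. Per the labels, reads were mapped to mm9 with TopHat2, counted with featureCounts and compared with edgeR, with versions and strand setting not given in the sources used here. A further 12 columns hold the authors' ratios, fold changes and p-values and were not used, and 4 intensity columns repeat a group. RNA was poly(A)-selected and libraries came from independent cultures.

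log2 ratios of the deposited FPKM means were computed in Python 3.11.15 with pandas 2.3.3, with a pseudocount of 0.1 FPKM and a minimum mean of 1 FPKM, and the script was tested on simulated data. Folds of 1.5 and 2 were used as descriptive limits. Approximate reads for the counting intervals were FPKM times the shortest GENCODE transcript and the depth recovered for the group. Transcript lengths were matched by name. For each comparison, the 5 highest and 5 lowest genes of at least 5 FPKM, core subunits, isoforms and the most abundant genes were named, with up to 4 genes per list. Members and lists were chosen with earlier results of these data known. One marker of the lists is not reported here.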

Additional observations from a re-analysis of the deposited data

How the results depend on the processing

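The columns used hold group means, so no replicate could be left out, and a median was called moved at a change of 0.1. No paired analysis was possible because the columns carry group means without replicate numbers. No direction reversed under any alternative. The 4HC against vehicle control median went from -0.32 to -0.42 when centred on all rows. Without the filter, Cox7a1, with about 1.1 reads in the vehicle control, made 1 gene higher in 4HC and 1 in 4HC+IFNAR-1 Ab against vehicle control. At 2-fold, 1 and 6 genes were lower in these comparisons. The 2 genes higher with IFN-beta became 0 with a pseudocount of 1 FPKM, a minimum of 10 FPKM, structural subunits only, or 2-fold, and upper quartile scaling made 1 gene lower. Chosen after seeing the data, genes under 1000 bases were centred on other rows of that length. The median was then -0.25 in 4HC, -0.05 in IFN-beta and -0.32 in 4HC+IFNAR-1 Ab against vehicle control and -0.022 in 4HC+IFNAR-1 Ab against 4HC. With rows of at least 10 FPKM it was -0.16, -0.00087, -0.21 and -0.0044 in that order.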

Other observations

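Other energy metabolism genes were mixed. Of 18 glycolysis genes past the filter, 8 were higher and 0 lower by more than 1.5-fold in 4HC against vehicle control, with a median of 0.40, where 23.6% of all rows were higher and 10.2% lower. Of the 18, 4 had ratios below 0. The lowest was Pgk1, with 236 FPKM in the vehicle control and 169 with 4HC (log2 ratio -0.49). Pfkp, the platelet form of phosphofructokinase, had 3.56 FPKM in the vehicle control, 9.46 with 4HC, 9.81 with 4HC+IFNAR-1 Ab and 4.53 with IFN-beta. Aldoa, an aldolase, had 87.8, 168, 159 and 135 FPKM. Hk2, a hexokinase, had 9.41, 14.6, 14.4 and 5.42 FPKM, so its IFN-beta mean lay on the other side of the vehicle control. The 21 genes listed for the tricarboxylic acid cycle had a median of -0.01, with 2 higher and 2 lower by more than 1.5-fold. That list also counted subunits of pyruvate dehydrogenase and the Pdk kinases that act on it, which are not cycle enzymes. They include Pdk1, 1 of the 2 higher genes, with 1.21 FPKM in the vehicle control and 1.94 with 4HC, and Pdha1, 1 of the 2 lower. Idh2, the mitochondrial NADP-dependent isocitrate dehydrogenase, had 16.9 and 30.6 FPKM in the vehicle control and 4HC groups. Dld, a subunit of several dehydrogenase complexes, had 71.0 and 43.0 FPKM, and Pdha1, a subunit of pyruvate dehydrogenase, 52.7 and 34.6 FPKM.

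The carriers that exchange ATP, ADP and phosphate across the mitochondrial membranes were mixed. Slc25a4, a carrier of ADP and ATP, had 149 FPKM in the vehicle control and 222 with 4HC, and its paralog Slc25a5 had 158 and 129 FPKM. Of 6 genes of that list past the filter, 0 passed 1.5-fold in either direction. They include Vdac1, Vdac2 and Vdac3, which are outer membrane channels.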
